A study of Mus musculus with 15 samples.

Results

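The genes described here are 10 genes whose protein products are released by, or serve secretion in, salivary and mucous glands and the nasal lining: Dcpp1, Dcpp2, Dcpp3, Dmbt1, Bpifa1, Bpifb1, Scgb1c1, Scgb3a1, Muc5b and Aqp5. They are 10 of 54232 genes in the count table and were selected on the counts of these 15 libraries, in which Dcpp1 was far higher at E16.5 than at E15.5. The step from E15.5 to E16.5 is taken here as the one that chose them, and its values are given as a description without a test. Tests of the other steps use the same libraries and are not independent of the selection either. The tissue was the secondary palate (the roof of the mouth and floor of the nasal cavity) of wild-type (WT) mice at daily embryonic stages that run from E13.5 (embryonic day 13.5) to E16.5, and at P0 (birth), with no treatment named. Each of the 5 stages had 3 bulk RNA libraries, each made from pooled tissue of 3 embryos. Differences among libraries of a stage are therefore differences among pools. The strain is not given in the sources used here.

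The palate carries oral epithelium below and nasal epithelium above, and minor salivary and mucous glands bud from these surfaces late in gestation. Gland acini and surface secretory cells release mucins, which form gels, together with small lipid-binding and bacteria-binding proteins, and water follows through aquaporins. Serous and demilune cells of salivary glands, goblet cells, and the Bowman's glands of the olfactory lining make different mixtures of these products.

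Libraries held 21470759 to 69019565 counts, with the lowest total in P0 library 3. The detection floor was set at 3 counts, or 0.0435 to 0.140 CPM (counts scaled to a common library total). CPM of genes below use totals scaled with TMM factors, which adjust for differences in RNA composition. Floors and counting intervals cover counting error only. The palatal shelf genes Osr2 and Pax9 were present in 15 of 15 libraries, at no less than 17.3 and 21.1 CPM of library totals. Tbx22, a palate transcription factor, was also detected in 15 of 15 libraries, but at 0.134 CPM in P0 library 2. E16.5 library 1 stood apart. Its thyroid markers (Tg, Pax8, Tshr and Slc5a5) summed to 4089 CPM against 2.96 to 26.4 CPM in the other libraries. Tg alone made up 4058 CPM of this sum, and Pax8, at 21.9 CPM, was no higher than in E14.5 library 1, at 23.4 CPM. Its lower airway markers summed to 625 CPM against 0.223 to 43.6 CPM. In 6 libraries, including all 3 of E16.5, 4 Y-linked genes summed to 7 to 28 counts, against 2976 to 12808 counts in the other 9, so at E16.5 stage and the sex of the pools cannot be told apart. In bulk tissue, fewer cells of a type and less RNA per cell cannot be told apart.

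The Dcpp genes (demilune cell and parotid proteins, released by salivary glands) lie side by side on the plus strand of chromosome 17 (GRCm38): Dcpp1 at chr17:23880876-23882853, Dcpp2 at chr17:23880880-23900787 and Dcpp3 at chr17:23917458-23919441. Their coding sequences of 516, 516 and 513 bases were 93.8% identical between Dcpp1 and Dcpp2, 93.2% between Dcpp1 and Dcpp3, and 95.3% between Dcpp2 and Dcpp3. The annotation of the count table also gives Dcpp2 an exon of 30 bases inside the first exon of Dcpp1. For each gene 1 transcript was taken, the one with the longest coding sequence. Of all 50-base windows of these transcripts, 58.3% of Dcpp1, 57.0% of Dcpp2 and 53.9% of Dcpp3 occurred in neither of the others. The transcripts have 617, 689 and 678 bases, against 617, 641 and 610 exon bases in the count table, so the windows are not exactly those counted. Counts of the individual genes are therefore uncertain, and the 3 were summed, which makes 8 rows of the 10 genes. All 8 rows passed the filter on low counts. The stretch of 90 coding bases in which they differ most, at 20 of its positions, is shown to let a reader see how alike they are (GENCODE M21 transcripts, plus strand of GRCm38, at chr17:23882552-23882641, chr17:23900487-23900576 and chr17:23919140-23919229). Capitals mark positions at which the 3 are not the same.
Dcpp1: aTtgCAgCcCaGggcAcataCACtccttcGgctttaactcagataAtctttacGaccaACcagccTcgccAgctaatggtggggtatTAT
Dcpp2: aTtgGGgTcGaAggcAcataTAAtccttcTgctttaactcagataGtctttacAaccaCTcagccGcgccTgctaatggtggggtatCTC
Dcpp3: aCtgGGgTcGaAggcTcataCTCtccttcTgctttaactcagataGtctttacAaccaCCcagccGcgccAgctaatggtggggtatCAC
Over the whole coding sequence the 3 were not all the same at 46 of 516 aligned positions.

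The sequences before the Dcpp start sites were also alike. Over the 250 bases before the start given by RefSeq (GRCm38.p6), identity was 93.3% to 96.4% between pairs. The 95 bases shown, which end 14 to 19 bases before the start, are from chr17:23880768-23880862, chr17:23898609-23898703 and chr17:23917347-23917441 (plus strand), and capitals mark the 2 positions at which they differ.
Dcpp1: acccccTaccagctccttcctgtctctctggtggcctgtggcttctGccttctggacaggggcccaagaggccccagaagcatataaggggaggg
Dcpp2: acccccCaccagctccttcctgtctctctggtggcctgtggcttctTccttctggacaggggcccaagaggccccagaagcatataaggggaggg
Dcpp3: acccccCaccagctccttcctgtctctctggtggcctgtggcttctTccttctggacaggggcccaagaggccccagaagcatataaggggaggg
Of the 10 members, 8 had an entry in the RefSeq promoter table. In the 250 upstream bases, searched on both strands, the letters TATAAG occurred in all 3 Dcpp promoters and in 6.65% of 32851 promoters, and AGGAAG, a core of ETS factor sites, occurred in all 3 and in 29.5%. Among the other members, TATAAG also occurred in 1 of the Bpifb1 entries, 31 bases before its start, and AGGAAG in Bpifa1, Scgb3a1 and 1 Bpifb1 entry. Dcpp1 held 2 AGGAAG matches and Dcpp2 and Dcpp3 held 3 each. These promoters are nearly identical, so their matches are not separate observations. The forkhead letters TGTTTAC were in no member's window and in 3.17% of promoters. The SOX letters ACAAAG were in none of the Dcpp windows, in Scgb3a1 and 1 Bpifb1 entry, and in 16.5% of promoters. The TATA box letters TATAAA were in 12.4% of promoters and, among the members, only in Bpifa1, 29 bases before its start. TATAAG was added after the sequences had been seen.

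Dcpp RNA was near the floor through E15.5 and was high in most libraries of E16.5 and P0. The summed Dcpp counts were 0, 3 and 0 at E13.5, 0, 5 and 13 at E14.5, and 0, 12 and 18 at E15.5 (libraries 1, 2 and 3). At E16.5 the sum was 70.7, 10.2 and 1.00 CPM, and at P0 it was 177, 241 and 8.40 CPM. Libraries 1 and 2 were high at P0, and P0 library 3 lay below 2 of the 3 libraries of E16.5, so these 2 stages overlap. The mean was 142 ± 120 CPM at P0 (SD, n = 3) and 27.3 ± 37.9 CPM at E16.5.

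From E13.5 to P0 the Dcpp sum rose with a Benjamini-Hochberg adjusted p of 3.74e-04 (edgeR quasi-likelihood test). The E13.5 level rests on 3 counts, and the ratio of the P0 mean to it was 9861, with a 95% counting interval of those counts of 3374 to 47815. Kept as separate rows, all 3 genes passed this comparison, with adjusted p of 2.91e-04 for Dcpp1, 0.00102 for Dcpp2 and 4.79e-04 for Dcpp3. Between E16.5 and P0 the sum did not pass, at a log2 fold change of 2.38 ± 1.26 (SE) and an adjusted p of 0.494. The E16.5 minus E15.5 difference of mean log2 CPM was 6.10, or 4.62 without E16.5 replicate 1, and all E16.5 libraries lay above all E15.5 libraries. Without that library the log2 fold change from E16.5 to P0 was 4.69 for the Dcpp sum (adjusted p = 0.116), which again did not pass.

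Dcpp1 and Dcpp3 held most of the Dcpp counts, and Dcpp2 the least. Dcpp2 took 7.38% of Dcpp counts in E16.5 library 1 (95% Wilson interval 6.54% to 8.33%), 7.05% in library 2 (4.85% to 10.1%) and 7.32% in library 3 (2.52% to 19.4%). At P0 it took 16.8% in library 1 (15.9% to 17.8%), 14.2% in library 2 (13.5% to 15%) and 8.29% in library 3 (5.17% to 13%). By point values its share was higher in every P0 library than in any E16.5 library. Means were 13.1% ± 4.36 at P0 and 7.25% ± 0.176 at E16.5 (SD, n = 3 each). The exact two-sided permutation p was 0.10, the smallest that 3 against 3 libraries allow. P0 library 3 held 16 Dcpp2 counts, and its interval overlapped those of all E16.5 libraries. The shares also depend on how near-identical fragments were assigned, which was not tested. Dcpp1 held 43.9% and Dcpp3 48.7% in E16.5 library 1, while in libraries 2 and 3 of that stage Dcpp1 held 54.5% and 53.7% and Dcpp3 38.5% and 39.0%. The plot of Dcpp shares shows these values for the 6 libraries.

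**Figure D1:**
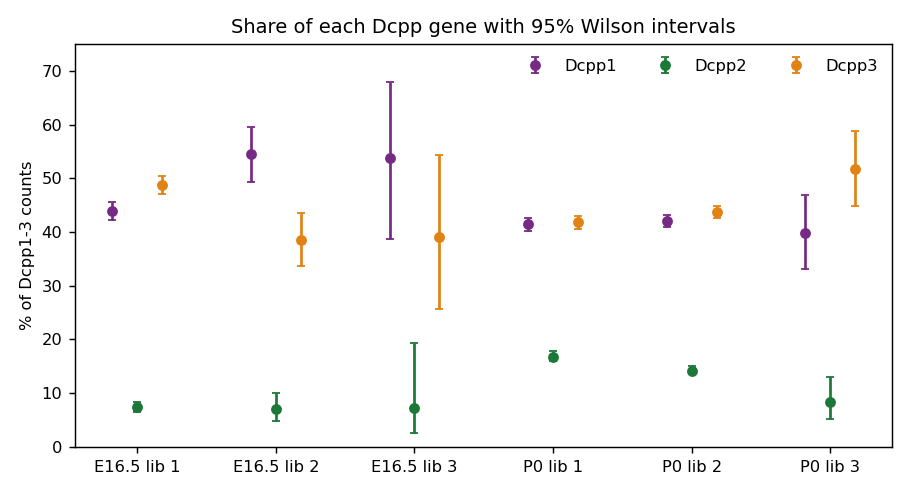
Percent of the summed Dcpp1 to Dcpp3 counts held by each gene (y axis) in the 3 libraries of E16.5 and of P0 (x axis), with bars for 95% Wilson intervals. Dcpp2 lies between 7.05% and 7.38% at E16.5 and between 8.29% and 16.8% at P0.

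Dmbt1 (chr7:131032053-131121630, plus strand), a scavenger receptor protein of saliva and mucus that binds bacteria, had the same order of libraries as the Dcpp sum within E16.5 and within P0. No count was found in any library of E13.5, and 0, 2 and 5 counts were found at E14.5 and 6, 13 and 6 at E15.5. It reached 4.77, 2.19 and 0.196 CPM at E16.5 and 22.8, 35.0 and 0.653 CPM at P0. As with the Dcpp sum, library 3 was the lowest at both late stages. Dmbt1 rose from E13.5 to P0 by at least 450-fold against the floor of 3 counts per library (adjusted p = 6.40e-04). Between E16.5 and P0 the log2 fold change of 3.03 ± 1.22 had an adjusted p of 0.363 and the stages overlapped. Across the 15 libraries, log2 CPM of Dmbt1 and of the Dcpp sum had a Pearson r of 0.97, given as a description since the libraries share stages and dissections.

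Aqp5 (chr15:99590782-99594829, plus strand), the water channel of the apical membrane of gland acinar cells, was present at every stage and had the smallest range of the 8 rows. It measured 0.502, 0.620 and 0.609 CPM at E13.5 and 1.50, 0.984 and 0.800 CPM at E14.5. At E15.5 it was 0.556 CPM in library 1 but 6.20 and 4.6 CPM in libraries 2 and 3. It then measured 10.7, 3.90 and 5.48 CPM at E16.5 and 8.52, 10.6 and 10.3 CPM at P0. The P0 mean of 9.80 ± 1.12 CPM was 17 times the E13.5 mean of 0.577 ± 0.0653 CPM (SD, n = 3), a log2 fold change of 4.08 ± 0.69 with an adjusted p of 3.59e-04. The step from E14.5 to E15.5 missed the threshold (log2 fold change 1.79 ± 0.63, adjusted p = 0.0524). It passed in 4 of 14 alternatives, which were DESeq2, upper-quartile normalization, a filter at a mean of 1 CPM and the fit without E15.5 replicate 1. The adjusted p ranged from 0.0026 to 0.214 over the 14.

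Muc5b (chr7:141839070-141873084, plus strand), a gel-forming mucin of airway surface and glands, was higher at E15.5 than at E14.5 and higher again at E16.5. It measured 0.0287, 0.507 and 0.0743 CPM at E13.5 and 0.234, 0.348 and 0.197 CPM at E14.5. E15.5 libraries reached 2.22, 8.41 and 8.56 CPM, E16.5 libraries 599, 183 and 180 CPM, and P0 libraries 416, 325 and 229 CPM. All libraries of each stage from E15.5 lay above all libraries of E14.5, and E16.5 and P0 overlapped. Of all rows, 24.0% were higher at E15.5 than at E14.5 without overlap. The rise from E14.5 to E15.5 passed the test at a log2 fold change of 4.62 ± 0.82 (adjusted p = 0.00283), as did that from E13.5 to P0 at 10.60 ± 0.99 (adjusted p = 7.75e-06). Between E16.5 and P0 the means were 321 ± 241 and 323 ± 93.3 CPM, with a log2 fold change of 0.01 ± 0.64. The E16.5 minus E15.5 difference of mean log2 CPM was 5.63, with no overlap. Without E16.5 library 1 the other libraries of that stage remained at 183 and 180 CPM, against at most 8.56 CPM at E15.5.

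**Figure D2:**
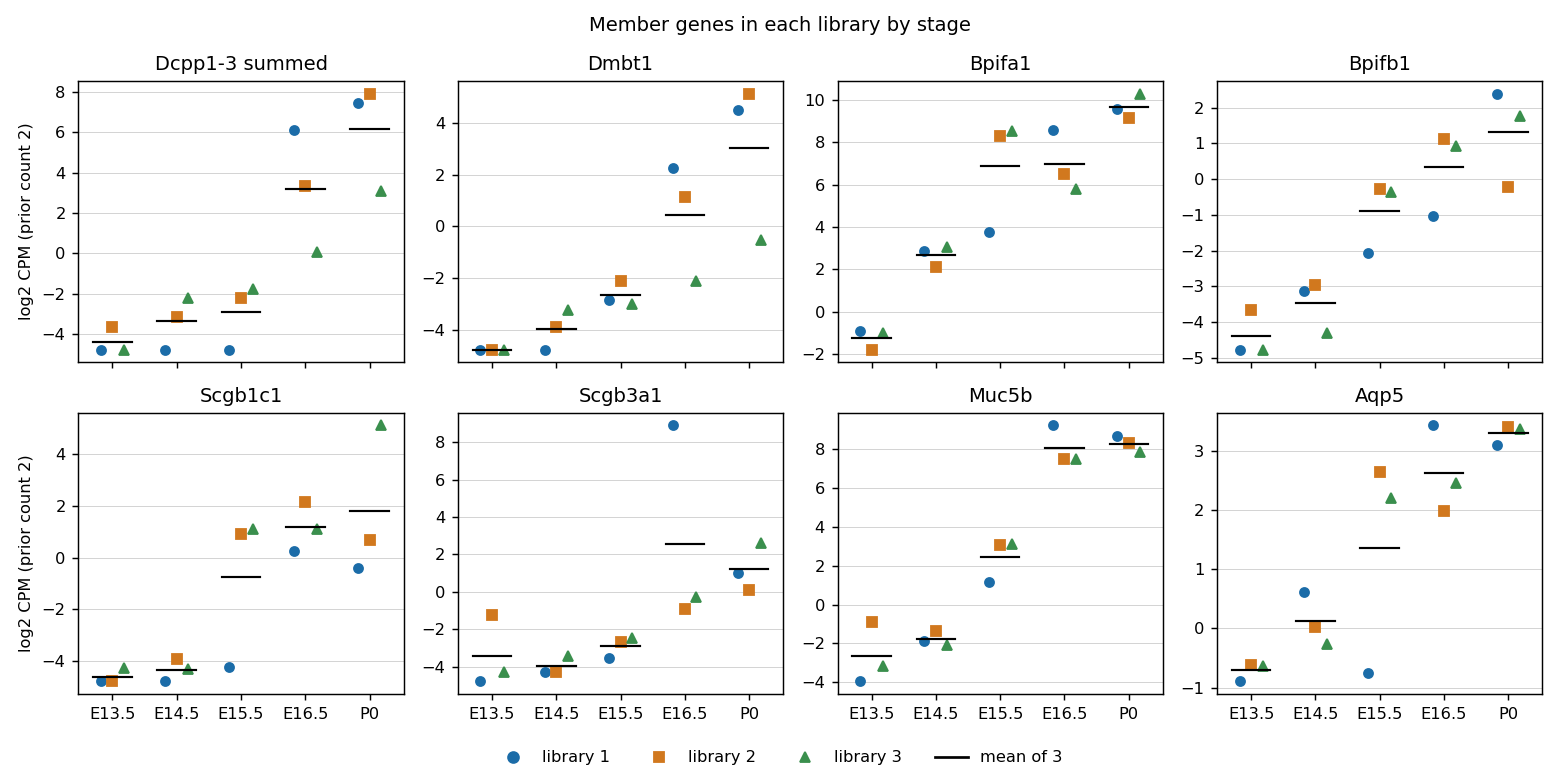
Log2 CPM with a prior count of 2 (y axis) of the 8 rows of member genes in each library by stage (x axis), with a black line at the mean of the 3 libraries. Muc5b and Bpifa1 are well above their E13.5 level in all libraries from E15.5 on, while the Dcpp sum and Dmbt1 are near their earlier levels until E15.5 and are low in library 3 of E16.5 and of P0.

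Bpifa1 (chr2:154142880-154149219, plus strand) and Bpifb1 (chr2:154190818-154220369, plus strand) encode BPI-fold proteins, which bind lipids and are released into nasal and upper airway fluid. Bpifa1 had the highest stage mean per kb of exon among the members at every stage but E16.5. It measured 0.487, 0.254 and 0.461 CPM at E13.5 and 7.34, 4.34 and 8.19 CPM at E14.5. At this step it was higher with no overlap, as were 15.5% of all rows, yet its adjusted p was 0.136 (log2 fold change 4.04 ± 1.06). It measured 13.6, 319 and 371 CPM at E15.5, 378, 91.3 and 55.2 CPM at E16.5, and 759, 563 and 1248 CPM at P0. E15.5 library 1 was far below the other 2 of its stage, and E15.5 and E16.5 overlapped, at a difference of mean log2 CPM of 0.08. The step from E14.5 to E15.5 passed at 5.15 ± 1.04 (adjusted p = 0.00524), and E13.5 to P0 passed at 11.06 ± 1.36 (adjusted p = 3.90e-05). Every P0 library was above every E16.5 library, which held for 6.24% of all rows. The log2 fold change of 2.29 ± 0.91 did not pass (adjusted p = 0.346), and neither did that of 3.55 without E16.5 replicate 1 (adjusted p = 0.102).

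Bpifb1 was far lower, at 0.863 CPM per kb of exon at P0 against 555 CPM per kb for Bpifa1. It had 0, 3 and 0 counts at E13.5 and 5, 6 and 1 at E14.5, then 0.202, 0.790 and 0.738 CPM at E15.5, 0.453, 2.16 and 1.86 CPM at E16.5 and 5.19, 0.823 and 3.35 CPM at P0. Here E16.5 library 1 and P0 library 2 were the low ones, unlike for Dcpp and Dmbt1. The step from E14.5 to E15.5 passed (log2 fold change 3.22 ± 0.96, adjusted p = 0.0276), but in leave-one-out fits the adjusted p lay between 0.0206 and 0.0884 and the call was lost in 5 of 6, all but the fit without E15.5 replicate 1. From E13.5 to P0 the adjusted p was 1.80e-04, with a ratio of 216 to an E13.5 level of 3 counts (95% counting interval 74.1 to 1050).

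Scgb1c1 and Scgb3a1 encode secretoglobins, small secreted proteins of epithelia that line the airways. Scgb1c1 (chr7:140845547-140846769, plus strand) is a product of the olfactory mucosa. It had 0, 0 and 1 counts at E13.5, 0, 2 and 1 at E14.5 and 1, 123 and 146 at E15.5. It measured 1.14, 4.43 and 2.10 CPM at E16.5, and 0.721, 1.56 and 34.4 CPM at P0. P0 library 3, the low library for Dcpp and Dmbt1, held the highest value of Scgb1c1, and E15.5 library 1 stayed at the level of E14.5. The step from E14.5 to E15.5 passed (adjusted p = 0.0305), at a ratio of 88.7 to an E14.5 level of 3 counts (95% counting interval 30.3 to 430). That call was lost in 5 of 6 leave-one-out fits, all but the fit without E15.5 replicate 1, at adjusted p of 0.0148 to 0.118. The rise from E13.5 to P0 passed (adjusted p = 0.00131), with a ratio of 2547 to an E13.5 level of 1 count (counting interval 457 to 100583). Between E16.5 and P0 the log2 fold change of 2.26 ± 1.32 (adjusted p = 0.547) turned to -1.16 without P0 replicate 3.

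Scgb3a1 (chr11:49663610-49665118, plus strand) was high in 1 library only. It measured 476 CPM in E16.5 library 1, while libraries 2 and 3 of E16.5 measured 0.498 and 0.783 CPM and the P0 libraries 2.00, 1.04 and 6.01 CPM. At the earlier stages it lay at 0 to 0.394 CPM, with the highest of these in E13.5 library 2, which had 28 counts. The log2 fold change from E16.5 to P0 was -5.75 ± 1.98 (adjusted p = 0.270), and without E16.5 replicate 1 it was 2.21 (adjusted p = 0.312). Every P0 library lay above every E13.5 library, which held for 30.2% of all rows. The difference between E13.5 and P0 did not pass, at a log2 fold change of 4.4 ± 2.12 and an adjusted p of 0.0934. Without E13.5 replicate 2 that log2 fold change was 8.25 (adjusted p = 0.0808), and a fit of only these 6 libraries gave an adjusted p of 0.0362.

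In the library with high Scgb3a1, some thyroid and lower airway genes were also high. In E16.5 library 1 Tg (thyroglobulin) measured 4058 CPM against 1.15 to 6.18 CPM elsewhere, Scgb3a2, a secretoglobin of the lower airways, 542 CPM and Scgb1a1, the club cell secretoglobin, 21.6 CPM. In E16.5 libraries 2 and 3 Scgb3a2 was 0.775 and 1.52 CPM, and Scgb1a1 0.0277 and 0.0245 CPM. In E13.5 library 2, which had the highest Scgb3a1 and Muc5b of its stage, the lower airway list summed to 36.7 CPM, of which Nkx2-1, a transcription factor of thyroid and lung, made up 36.2 CPM. Clca1 measured 8.29 CPM in E16.5 library 1, against 0.166 and 0.0734 CPM in libraries 2 and 3. Sftpb, given under the other observations, was also far above its P0 level in E16.5 library 1. Some other genes of these lists showed less or none of this excess. In E16.5 libraries 1, 2 and 3, Sftpc measured 16.7, 12.8 and 10.5 CPM, Sftpd 5.12, 2.68 and 3.4 CPM, and Tshr 4.96, 3.65 and 3.35 CPM. Slc5a5 measured 4.10, 2.52 and 1.2 CPM in them. At P0 Scgb3a1 was highest in library 3, where Scgb3a2 was lowest, at 1.09 CPM against 2.39 and 1.25 CPM. At least 1 count of all 8 lower airway markers was found in E15.5 library 3 and in E16.5 libraries 1 and 3. The part of such RNA in the values of Scgb3a1 was not tested. Both lists were chosen after the data had been seen, and 3 of the lower airway genes (Scgb1a1, Scgb3a2 and Clca1) also stand in the airway secretory cell list. The values of E16.5 library 1 for the Dcpp sum, Dmbt1, Bpifa1, Muc5b and Aqp5 were also the highest of that stage.

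**Figure D3:**
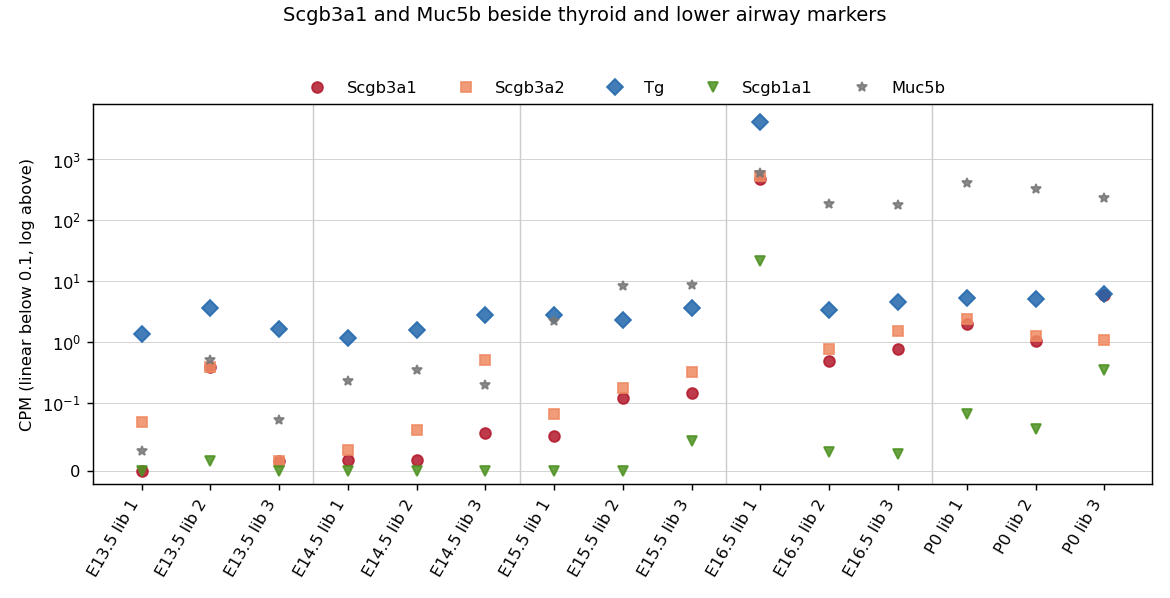
CPM (y axis, linear below 0.1 and logarithmic above) of Scgb3a1 and Muc5b and of the markers Scgb3a2, Tg and Scgb1a1 in each of the 15 libraries (x axis). All 4 genes other than Muc5b stand out in E16.5 library 1, where Tg is at 4058 CPM and Scgb3a1 at 476 CPM, while Muc5b is at 180 CPM or more in all libraries of E16.5 and P0.

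Read by comparison, members rose from E14.5 to E15.5 and over the whole span, and no member passed at the other tested steps. From E13.5 to E14.5, 0 of 8 rows passed in edgeR, where 1 had an unadjusted p under 0.05, and 1 passed in DESeq2; over all 22149 rows tested 0.00903% were higher and 0% lower. From E14.5 to E15.5, 4 of 8 rows rose (Bpifa1, Bpifb1, Scgb1c1 and Muc5b) and none fell, against 12.7% of all rows higher and 13.4% lower. With single libraries left out, 2 to 5 rows passed, and Bpifa1 and Muc5b were called in every one of these fits. From E16.5 to P0, 0 of 8 rows passed in edgeR, with 3 at an unadjusted p under 0.05, and 0 passed in DESeq2, against 0.190% higher and 0.163% lower over all rows. From E13.5 to P0, 7 of 8 rows rose, all but Scgb3a1, against 29.8% higher and 26.8% lower. This span contains the step taken as the one that chose the members, so their calls over it are not independent of that choice. The calls from E14.5 to E15.5 come from the same libraries and are not free of it either. Dmbt1, with no count at E13.5, could only rise. The Dcpp sum and Bpifb1, with 3 counts each at E13.5, and Scgb1c1, with 1, had almost no room to fall. All of these rows passed the filter only through later stages, so their calls over this span say little beyond that. Scgb1c1 had 3 counts at E14.5, so the same holds for its call from E14.5 to E15.5. With E16.5 replicate 1 left out of the shared estimate of spread, a choice made after seeing the data, 8 of 8 rose over this span and 5 of 8 from E14.5 to E15.5. The median log2 fold change over this span was 10.68 for the 8 rows, or 9.71 with Dmbt1 at its bound, and 0.03 over all rows tested. The step taken as the one that chose the genes was E15.5 to E16.5. In it 4 of 8 rows (Dcpp, Dmbt1, Scgb3a1 and Muc5b) were higher in every E16.5 library than in any E15.5 library. Of all 22149 rows, 15.6% were higher and 15.5% lower without overlap at this step. By the stricter adjusted p, 1.02% of all rows were called higher and 0.379% lower. Nothing is read from the members' count, since this step is taken to have chosen them.

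Levels of different genes can be compared only per length of exon. At P0 Bpifa1 was the highest member at 555 ± 228 CPM per kb, followed by the Dcpp sum at 230 ± 195, Scgb1c1 at 26.9 ± 42.3, Muc5b at 21.6 ± 6.23, Scgb3a1 at 5.04 ± 4.41, Aqp5 at 3.77 ± 0.433, Dmbt1 at 2.76 ± 2.47 and Bpifb1 at 0.863 ± 0.606 CPM per kb (SD, n = 3). Bpifa1 was above all others in each P0 library except library 2, where the Dcpp sum measured 391 and Bpifa1 364 CPM per kb. How fragments shared among the near-identical Dcpp genes were counted was not tested, so the place of the Dcpp sum in this order is uncertain. The library ranges of neighbours in this order overlapped, except those of Muc5b and Scgb3a1. At E13.5 no member exceeded 0.259 ± 0.0828 CPM per kb, the level of Bpifa1, followed by Scgb3a1 at 0.228 ± 0.374 and Aqp5 at 0.222 ± 0.0251 CPM per kb.

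Libraries of P0 differed in which members they carried. In P0 library 3 the Dcpp sum was 8.40 CPM against 177 and 241 CPM and Dmbt1 0.653 against 22.8 and 35.0 CPM, whereas Scgb1c1 was 34.4 against 0.721 and 1.56 CPM. Muc5b and Aqp5 varied less than 2-fold across the P0 libraries, at 229 to 416 and 8.52 to 10.6 CPM. Lipf, a gastric-type lipase made by lingual glands, was 0.261 CPM in P0 library 3 against 84.1 and 153 CPM, and Bpifb2 was 0.261 against 11.8 and 19.2 CPM. Omp, the olfactory marker protein of mature olfactory neurons, was 118 CPM in P0 library 3 against 2.33 and 10.1 CPM. The skeletal muscle list summed to 7691 CPM there against 36187 and 44979 CPM, and the stratified oral epithelium list to 5246 against 978 and 3060 CPM. At E16.5 the muscle list summed to 47837, 22282 and 15928 CPM, in the same order as the Dcpp sum and Dmbt1. The part of the dissected region in these differences was not tested.

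**Figure D4:**
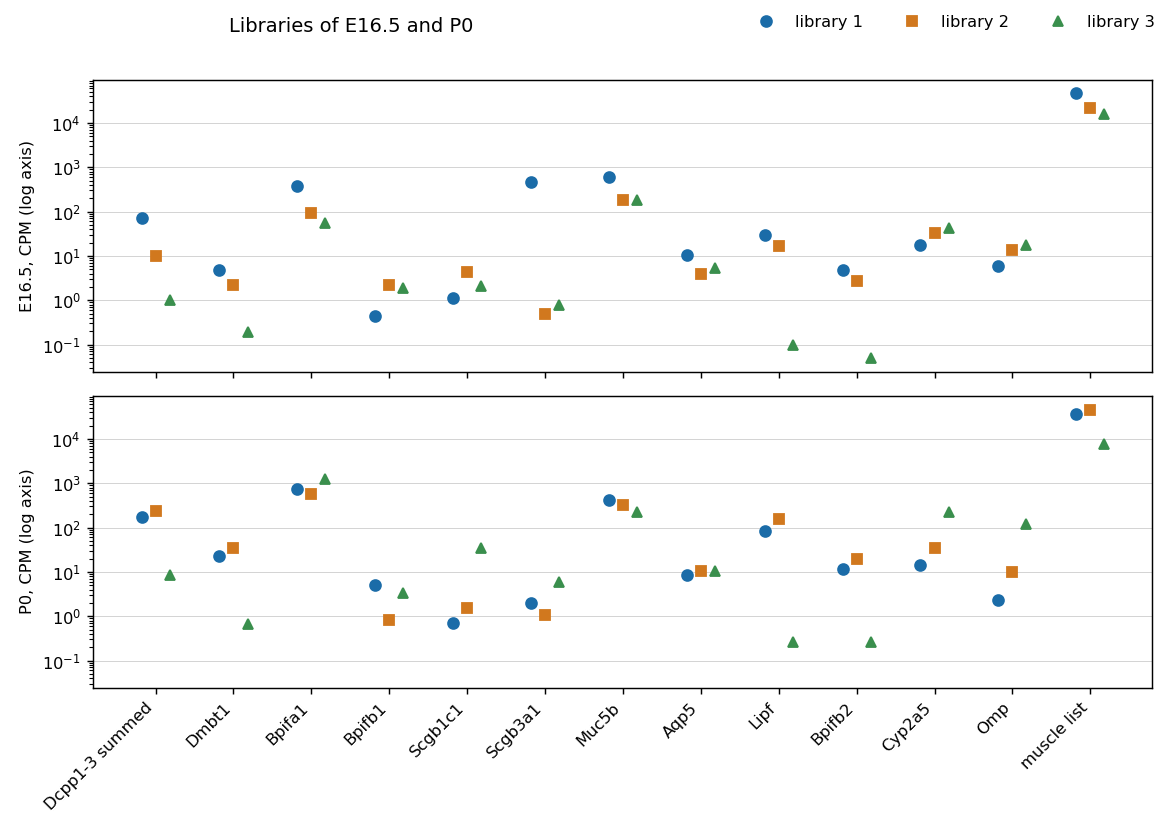
CPM on a log axis (y axes) of the member rows, of Lipf, Bpifb2, Cyp2a5 and Omp, and of the summed skeletal muscle list (x axis) in the 3 libraries of E16.5 (upper panel) and P0 (lower panel). Library 3 is the lowest for the Dcpp sum, Dmbt1, Lipf, Bpifb2 and the muscle list in both panels, and the highest for Omp, at 17.5 CPM at E16.5 and 118 CPM at P0.

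At E15.5, library 1 was the lowest for all members but Dmbt1. It held 13.6 CPM of Bpifa1 against 319 and 371 CPM, 0.0169 CPM of Scgb1c1 against 1.83 and 2.11 CPM, and 0.556 CPM of Aqp5 against 6.20 and 4.6 CPM. Muc5b was 2.22 CPM there against 8.41 and 8.56 CPM, and the Dcpp sum had 0 counts against 12 and 18. Omp was 0.641 CPM in that library against 30.3 and 29.9 CPM, the simple epithelium list summed to 292 CPM against 894 and 923 CPM, the multiciliated cell list to 192 against 477 and 470 CPM, and the stratified oral epithelium list to 344 against 818 and 1678 CPM. The skeletal muscle list had the opposite order, at 5958 CPM in library 1 against 3274 and 2181 CPM. Dmbt1 measured 0.101 CPM in library 1 against 0.194 and 0.0868 CPM. Library 1 was also the only E15.5 library with few Y-linked counts, 20 against 3707 and 11083. The part of these cell types in the E15.5 values was not tested.

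The genes with the most similar pattern over the 15 libraries differed between members. By Pearson r of log2 CPM among 15434 candidate genes, the closest to the Dcpp sum were Mybpc2 (0.978), which encodes a myosin-binding protein of skeletal muscle, Lims2 (0.972) and Rpl3l (0.969), a ribosomal protein gene of muscle. The closest to Dmbt1 were Bpifb2 (0.972), Sbpl (0.972) and Lims2 (0.971). For Bpifa1 they were Gsta3 (0.982), Serpinb11 (0.978) and Daw1 (0.973), the last of which serves assembly of motile cilia. For Muc5b they were Pglyrp1 (0.989), which encodes a peptidoglycan-binding protein, Agr2 (0.988), which serves mucin folding, and Ckmt2 (0.986). For Scgb1c1 they were Cyp2a5 (0.968), an enzyme of the nasal mucosa, Sftpd (0.967) and St6galnac2 (0.964). For Bpifb1 they were Ank (0.965), Cd37 (0.953) and Mmp13 (0.95), for Aqp5 Gm17018 (0.972), 1700088E04Rik (0.971) and Tgm5 (0.967), and for Scgb3a1 Scgb3a2 (0.958), Stk11 (0.927) and Mybphl (0.913). Among the members, Bpifa1 and Aqp5 had an r of 0.93, Bpifb1 and Muc5b 0.91, and Dmbt1 and Scgb1c1 0.61. All of these share the stages and the libraries, and no test was made.

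Other secretory genes were read from 6 lists of 121 genes in all, of which 118 were in the table and 91 passed the filter on low counts. From E13.5 to P0, 71 of the 91 rose and 1, Sox9, fell, against 29.8% of all rows higher and 26.8% lower. The median log2 fold change was 3.35 (3.32 with genes at 0 set to their bound) against 0.03 over all rows. The filter also kept genes that had counts only at later stages. Klk1, Lcn3, Lcn11 and Lcn12 had no count at E13.5, so a rise was the only change they could show. Others had almost no room to fall, with at most 3 counts in any E13.5 library. Among these were Tff2, Bpifb6, Bpifb9a, Wfdc18, Lyz1, Pigr, Lipf, Muc5ac and Bpifb2, picked out here for their low counts. The counts of rises given here for the lists include such genes. Of other salivary and mucous gland products, 28 were in the table and 14 were tested. Of those tested 11 rose, including Ltf (lactoferrin), from 0.654 ± 0.321 to 152 ± 84.4 CPM, and Wfdc18, from 0.00947 ± 0.0082 to 29.9 ± 12.4 CPM. Among the untested ones, Bpifa2 and Prb1 had at most 2 counts in a library, and Cst10 and Prh1 had none. All 10 tested genes of the other BPI-fold family rose, with Pltp, a phospholipid transfer protein of plasma, at the smallest log2 fold change of 1.41 ± 0.21. Bpifb9b rose to 65.7 ± 45.7 CPM and Bpifb9a to 10.8 ± 7.39 CPM at P0. Among airway secretory cell genes 22 of 27 rose, among them Reg3g, an antibacterial lectin, from 0.448 ± 0.0789 to 363 ± 180 CPM, Cbr2 from 3.95 ± 1.91 to 361 ± 64.2 CPM, and Sec14l3 from 0.280 ± 0.0815 to 148 ± 85.1 CPM.

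Of the list of lipocalins, small carriers of odorants or of other ligands, 4 of the 11 in the table were tested and 4 rose. Of the untested ones, Obp1a, Obp1b, Lcn4 and Mup4 had no count in any library. Obp2a and Obp2b had at most 4 counts in a library. Lcn2 reached 24.2 ± 6.75 CPM at P0, while Lcn11 and Lcn12 had no count at E13.5 and reached 0.542 ± 0.573 and 0.255 ± 0.126 CPM. The call of Lcn11 (adjusted p = 0.0439) was lost in 5 of 6 leave-one-out fits, all but the fit without P0 replicate 2, with adjusted p up to 0.110. Among secretory epithelium transcription factors 11 of 16 rose and 1 fell. Ascl3 and Foxi1, factors of ion-transporting ductal cells, rose by 5.74 ± 0.82 and 5.5 ± 1.22 on the log2 scale, and Xbp1 and Creb3l1, factors of the secretory pathway, by 0.84 ± 0.14 and 2.14 ± 0.28. Sox9, which marks gland buds and cartilage, fell from 105 ± 20.6 to 18.3 ± 11.1 CPM; it was named after its values were seen. Among genes of water and ion transport 15 of 22 rose, including Aqp1 (2.75 ± 0.43), Atp1b1 (2.63 ± 0.28), the chloride transporter Slc26a9 (4.54 ± 0.52) and the anion channel Best2 (4.37 ± 0.57).

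**Figure D5:**
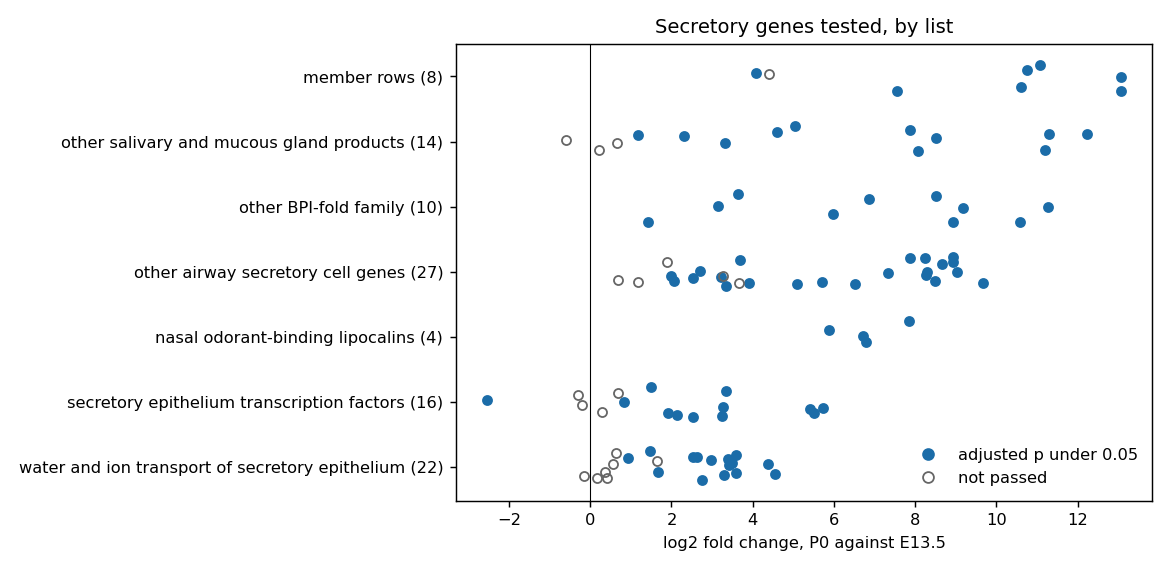
Fitted log2 fold change of P0 against E13.5 (x axis) for each tested gene of the member rows and the 6 other secretory lists (y axis, number tested in brackets). Filled points have an adjusted p under 0.05, and the vertical scatter within a list carries no value. All but 1 of the 72 filled points of the other lists are above 0.

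By step, most calls among the other secretory genes came between E14.5 and E15.5, the single step with most calls over all rows too. Of all rows, 12.7% were higher and 13.4% lower at that step. The shares were 1.02% and 0.379% from E15.5 to E16.5 and 0.190% and 0.163% from E16.5 to P0. They were 0.00903% and 0% from E13.5 to E14.5. From E13.5 to E14.5 none of the 91 passed in edgeR (13 at an unadjusted p under 0.05), and 4 passed in DESeq2. From E14.5 to E15.5, 42 rose and 1, the muscarinic receptor Chrm3, fell by 1.38 on the log2 scale (named after its values were seen). Leaving out E14.5 replicate 1 lowered the count of calls from 43 to 26, and leaving out either replicate 2 or replicate 3 of E15.5 gave 28. The lists with most calls at this step were airway secretory cell genes (18 of 27) and water and ion transport (9 of 22), while 4 of 14 other gland products rose. From E15.5 to E16.5, 7 rose and none fell: Ltf, Tff2, Muc5ac, Agr2, Reg3g, Pigr and Spdef, a transcription factor of goblet and mucous cells. Tff2, Muc5ac, Pigr and Spdef were named after their values were seen. When E16.5 replicate 1 was left out edgeR called 0, although 27 had an unadjusted p under 0.05. It also called 0 when replicate 2 (33 unadjusted) or replicate 3 (30 unadjusted) of E15.5 was dropped. Dropping E15.5 replicate 1 gave 3 calls, E16.5 replicate 2 gave 2, E16.5 replicate 3 gave 12 and P0 replicate 3 gave 13, while DESeq2 called 21. From E16.5 to P0 none passed in edgeR (9 at an unadjusted p under 0.05), and 3 did in DESeq2.

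Markers of other cells rose over the same span. From E13.5 to P0, 8 of 10 simple epithelium markers, 10 of 10 multiciliated cell markers, 7 of 8 olfactory neuron markers, 7 of 8 stratified oral epithelium markers, 5 of 6 myoepithelial markers and 8 of 8 skeletal muscle markers rose. Over all rows 29.8% were higher and 26.8% lower. At E14.5 to E15.5, where Bpifa1 and Muc5b rose, 8 of 8 skeletal muscle, 9 of 10 multiciliated, 5 of 8 stratified oral epithelium, 4 of 10 simple epithelium, 3 of 8 olfactory neuron and 0 of 6 myoepithelial markers rose, and 2 of 5 choroid plexus markers fell, against 12.7% of all rows higher and 13.4% lower. The simple epithelium list summed to 168 to 348 CPM at E13.5 and 792 to 1693 CPM at P0. The choroid plexus list, a sign of brain tissue, summed to 1336 and 725 CPM in E14.5 libraries 1 and 3 and to 7.54 to 378 CPM in the others, and 1 of its 5 genes (Kl) rose from E13.5 to P0. Of the 4 thyroid markers 1 rose and 1 fell over that span, and of 5 tested lower airway markers 2 rose and 1 fell. The part of the amount of epithelium in the members' rises was not tested.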

How the data were processed

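RNA of 15 libraries was counted per gene by the authors. The deposited values are counts of fragments per gene made with featureCounts 2.0.1, with reverse strandedness and the GENCODE M18 annotation, per the file headers. The submitters' processing notes list the build mm10 with cutadapt 3.4, HISAT2 2.2.1, Bowtie2 and SAMtools 1.12. The recorded command gave no option for multi-mapping or ambiguous fragments, which matters for near-identical genes such as Dcpp1 to Dcpp3; its effect on them was not tested. The deposited exon length per gene, whose values are bases, was used for levels per kb. Depth was 21470759 to 69019565 counts per library.

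Symbols came from GENCODE M21 (54165 of 54232 genes), and 97.5% of genes had an identical position there. Dcpp1 to Dcpp3 were summed before the fit. Rows were filtered with filterByExpr by stage (minimum count 10), leaving 22149, and TMM factors were computed. A model with stage as its only term was fitted to the 15 libraries together (edgeR 4.0.16 under R 4.3.3). The quasi-likelihood F test was used for each comparison, adjusted by Benjamini-Hochberg over all rows, threshold 0.05. SE is the fold change over the root of F. Log2 CPM used a prior count of 2. The code was tested on simulated data.

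Members and lists were chosen with earlier results of these data known, so no pattern is independent of them. All members were named. Of each other list, the 2 highest at P0 and the 2 with the largest fold change from E13.5 to P0 among called genes were named, of which some stand in the text. The replicates are pools, and nothing says that they came from separate litters, so p-values measure only the spread between these pools. Alternatives were DESeq2 1.42.0, other normalizations and filters, fits restricted to the 6 libraries compared, a prior count of 0.5, a replicate block, separate Dcpp rows and leaving out each library.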

Additional observations from a re-analysis of the deposited data

How the results depend on the processing

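Most results kept their side of the threshold: over the alternatives, 907 of the fold changes for named genes stayed as they were, 16 lost and 7 gained the call, and 7 changed sign; of the counts and the Dcpp difference 125 stayed within 1.5 times and 21 moved. DESeq2 called 1 member from E13.5 to E14.5, and of the other secretory genes 4 at that step, 21 from E15.5 to E16.5 and 3 from E16.5 to P0, against 0, 0, 7 and 0 in the edgeR fit. With only the 6 libraries of the contrast, 0 other secretory genes were called from E15.5 to E16.5. With single libraries left out, called members from E14.5 to E15.5 ranged from 2 to 5, other secretory genes from 26 to 51 at that step and from 0 to 13 from E15.5 to E16.5; the 13 was without P0 replicate 3, chosen after seeing the data. From E16.5 to P0 the log2 fold change of Muc5b was -0.04 with no filter and -0.28 to 0.83 with single libraries left out, that of Scgb1c1 -1.16 to 2.90 and that of Scgb3a1 -6.72 to 2.21. The cause was not tested.

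Whether the replicate numbers pair the libraries was not settled, since a mean r near 0 can hide weak pairing. Deviations from the stage mean had a mean r of 0.06 for the same number (lowest -0.30) and -0.03 for other numbers. Of 15 libraries, 7 correlated best with their own number. With the replicate block, 2 other secretory genes were called from E13.5 to E14.5 against 0, and the counts of member calls were 0, 4, 0 and 7 at the 4 tested steps, as without it.

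Counts of 0 to 3 at E13.5 limit the folds of Dcpp, Dmbt1, Bpifb1 and Scgb1c1. Removing the filter gave 37996 rows and a mean of at least 1 CPM gave 16518.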

Other observations

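Genes of surfactant, the fluid that coats lung alveoli, were measurable in the palate libraries. Sftpc measured 0.961, 4.73 and 3.96 CPM at E15.5, 16.7, 12.8 and 10.5 CPM at E16.5, and 23.0, 28.4 and 16.9 CPM at P0, with E16.5 library 1 near the other 2 of its stage. It rose from E13.5 to P0 (edgeR adjusted p = 9.32e-06, log2 fold change 9.52 ± 0.92). Sftpd measured 5.12, 2.68 and 3.4 CPM at E16.5 and 2.86, 5.92 and 24.3 CPM at P0, highest in the P0 library that was also highest in Scgb1c1, Omp and Cyp2a5. Sftpb, by contrast, was 9.84 CPM in E16.5 library 1 and at most 0.392 CPM at P0. The list that holds the surfactant genes was chosen after the data had been seen.

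Bpifb9b and Bpifb9a had their own order of libraries. Bpifb9b measured 1.51, 24.7 and 252 CPM at E16.5 and 15, 78.2 and 104 CPM at P0, and Bpifb9a 0.194, 4.34 and 41.4 CPM at E16.5, so that E16.5 library 3, the lowest of its stage in Dcpp and Dmbt1, was the highest in both.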
